A study of Mus musculus with 2 samples.

Results

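The ribosomal S6 kinases are a family of serine/threonine kinases encoded by 8 listed mouse genes, Rps6ka1 to Rps6ka6, Rps6kb1 and Rps6kb2. The family was chosen by measured values: earlier results of the same control and decitabine counts had shown Rps6ka1 higher and Rps6ka3 lower in the treated library. The values of the members are therefore given as a description, without a test. Each symbol was matched to its Ensembl identifier in GENCODE mouse release M21, and 7 of the 8 members had a row among the 24223 genes of the count tables. Rps6ka6 matched no row and was not analysed here.

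RNA sequencing was performed on CT26, a colon carcinoma cell line from a BALB/c mouse, with and without decitabine (DAC), an inhibitor of DNA methylation that replaces cytosine when DNA is copied. The treated cells were given DAC at 1 µM in 3 doses, one every 24 h, and grew for a further 24 h in drug-free medium, and the control cells were handled in parallel without DAC. There was 1 library of each kind, so the culture, the library and the treatment cannot be told apart. The deposited counts summed to 34221886 in the control library and 35163420 in the DAC library.

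The family falls into 3 groups. The p90 ribosomal S6 kinases (RSK: Rps6ka1, Rps6ka2, Rps6ka3 and Rps6ka6) are activated by ERK and the kinase PDK1, and act on transcription, translation and survival proteins. The mitogen- and stress-activated kinases (MSK: Rps6ka4 and Rps6ka5) are nuclear kinases activated by ERK or p38 that phosphorylate histone H3, HMGN1 and the transcription factor CREB. The p70 S6 kinases (S6K: Rps6kb1 and Rps6kb2) are activated by mTORC1 and PDK1 and phosphorylate ribosomal protein S6. ERK signalling is frequently engaged in colorectal cancer.

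The upstream windows of 3 members whose counts differed between the libraries are shown because DAC inhibits DNA methylation. In mammals this mark lies mostly on cytosines of CG dinucleotides. Each window is the 250 bases before a RefSeq transcript start on GRCm38.p6, printed 5′ to 3′ on the strand of the gene, with every CG in capitals. Rps6ka1, on the minus strand of chromosome 4, has a CG-rich window at chr4:133887798-133888047 and an internal window at chr4:133874732-133874981. The windows of Rps6ka5 (chr12:100725121-100725370) and Rps6kb1 (chr11:86544808-86545057) are also on the minus strand.
Rps6ka1, upstream start: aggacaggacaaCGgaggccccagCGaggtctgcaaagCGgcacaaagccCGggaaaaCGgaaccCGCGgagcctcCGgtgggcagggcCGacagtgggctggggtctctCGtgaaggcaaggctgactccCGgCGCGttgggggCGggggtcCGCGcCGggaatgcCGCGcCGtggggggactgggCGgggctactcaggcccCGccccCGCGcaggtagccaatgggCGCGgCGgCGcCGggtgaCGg
Rps6ka1, internal start: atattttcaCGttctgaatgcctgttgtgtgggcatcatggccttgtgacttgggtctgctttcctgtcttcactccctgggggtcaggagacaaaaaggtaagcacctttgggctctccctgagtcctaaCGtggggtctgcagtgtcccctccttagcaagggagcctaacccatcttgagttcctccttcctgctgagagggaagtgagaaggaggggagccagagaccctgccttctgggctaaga
Rps6ka5: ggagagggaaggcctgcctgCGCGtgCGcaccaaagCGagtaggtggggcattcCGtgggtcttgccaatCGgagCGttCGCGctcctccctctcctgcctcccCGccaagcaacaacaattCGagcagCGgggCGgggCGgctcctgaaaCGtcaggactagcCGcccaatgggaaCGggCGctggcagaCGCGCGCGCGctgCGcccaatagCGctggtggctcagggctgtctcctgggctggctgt
Rps6kb1: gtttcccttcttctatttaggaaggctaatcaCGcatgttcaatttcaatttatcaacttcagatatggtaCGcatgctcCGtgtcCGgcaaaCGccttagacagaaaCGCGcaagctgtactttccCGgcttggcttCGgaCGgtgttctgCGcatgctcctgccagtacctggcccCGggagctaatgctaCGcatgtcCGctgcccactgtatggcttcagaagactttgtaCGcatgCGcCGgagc

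The median window of the 32851 in the RefSeq table held 6 CG. The upstream window of Rps6ka1 held 30 CG, and 5.94% of all windows held at least as many. Its internal window held 2, a number that 81.2% of windows reached, and another internal window at chr4:133873036-133873285 held 6. Rps6ka1 thus has annotated starts inside and outside a CG-rich stretch, and gene counts do not separate the transcripts that begin at each. Rps6ka5 had 25 CG and Rps6kb1 had 17, which 10.7% and 23.5% of windows matched or exceeded. The windows of the 2 members with little difference in counts held 19 CG (Rps6ka2) and 18 CG (Rps6ka4), within the range of the others. Rps6ka3 and Rps6kb2 had no window in the table. A CG count describes the letters of these windows, and their methylation was not analysed here.

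Levels are given in CPM, counts per 1e+06 counts of a library after TMM scaling by edgeR. Calls of higher or lower in DAC needed 1 CPM or more in at least one library, a 2-fold difference between the libraries, and an interval of their ratio that did not reach 1. The interval, in parentheses after a value, is a 95% counting interval. It is the exact Clopper-Pearson interval for ratios and shares, an exact Poisson interval for levels, and the conditional interval of the odds ratio for pairs of genes. It covers counting error only, and it says nothing of the spread between cultures.

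All 7 members with a row passed the CPM minimum, 1 being called higher (Rps6ka1) and 3 lower (Rps6ka3, Rps6ka5 and Rps6kb1). Of the 13545 genes that passed the minimum, 10.8% were called higher and 5.29% lower. Since the family was chosen by this contrast, nothing is read from its share of calls. Bulk counts cannot tell fewer expressing cells from less RNA per cell.

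Among the RSK genes, the counts moved in opposite directions. Rps6ka1, which encodes RSK1, had 86 counts in control and 471 in DAC. This is a rise from 2.69 to 12.5 CPM, a ratio of 4.67 (3.70 to 5.94). Rps6ka3 encodes RSK2, the kinase mutated in Coffin-Lowry syndrome. It had 5405 counts in control and 2334 in DAC, falling from 169 to 62.1 CPM, or 2.72-fold (2.59 to 2.85). Rps6ka2, which encodes RSK3, had 3115 and 3278 counts. Its CPM of 97.3 and 87.2 gave a ratio of 0.897 (0.854 to 0.942), inside the 2-fold limits, and its log2 ratio of -0.16 became 0.034 when library totals replaced the TMM factors.

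The MSK genes also differed from each other. Rps6ka4, which encodes MSK2, had 2589 counts in control and 3571 in DAC. The corresponding 80.8 and 95.03 CPM gave a ratio of 1.18 (1.12 to 1.24), which was not called, and the log2 ratio of 0.23 turned to -0.17 after centring on GC content. Rps6ka5, which encodes MSK1, was the less abundant gene, with 404 counts in control and 214 in DAC. It fell from 12.6 to 5.69 CPM, 2.22-fold (1.87 to 2.63).

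The S6K pair had the same arrangement of 1 called gene and 1 uncalled gene. Rps6kb1 encodes S6K1, the better-studied S6 kinase downstream of mTORC1. It had 2575 counts in control and 1404 in DAC, or 80.4 and 37.4 CPM, and was 2.15-fold lower (2.02 to 2.30). Rps6kb2, which encodes S6K2, had 612 and 804 counts. Its 19.1 and 21.4 CPM gave a ratio of 1.12 (1.01 to 1.25), and its log2 ratio of 0.16 became -0.023 after GC centring.

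**Figure D1:**
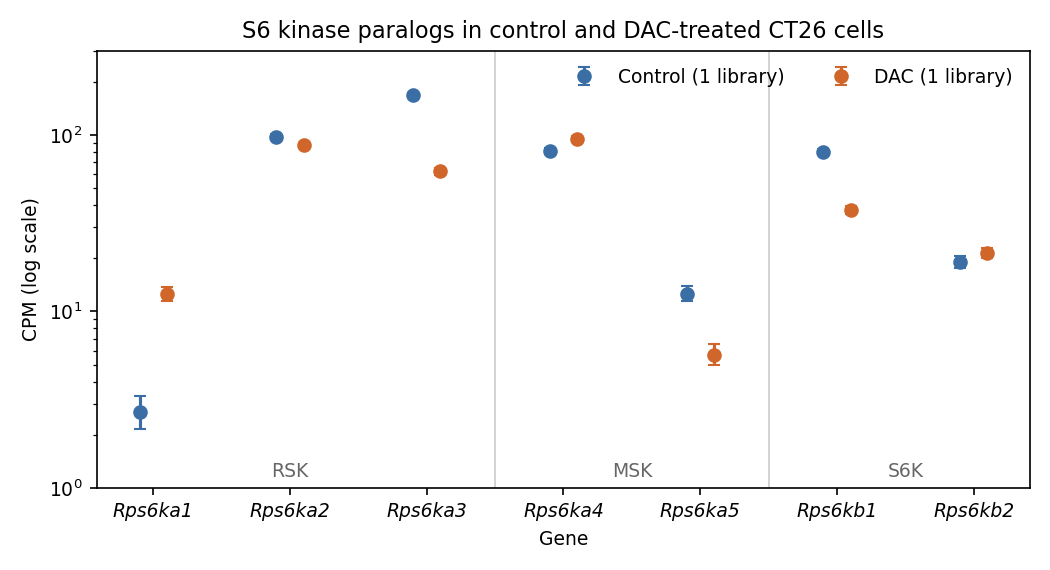
CPM of the 7 members with a row in the control (blue) and DAC (orange) library, on a log axis, grouped as RSK, MSK and S6K, where each point is 1 library and each bar the 95% counting interval. Rps6ka1 stands higher in DAC, at 12.5 against 2.69 CPM, and Rps6ka3, Rps6ka5 and Rps6kb1 stand lower.

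The calls rested on the scaling and on GC content to different degrees. By library totals, which raised all log2 ratios by 0.19, the log2 ratio of Rps6ka1 was 2.41 and that of Rps6ka3 was -1.25, while Rps6ka5 (-0.96) and Rps6kb1 (-0.91) were no longer called. Centring on the median of 20 bins of transcript GC content gave 1.96 for Rps6ka1 and -1.15 for Rps6ka3, both still called, and -0.87 for Rps6ka5 and -0.74 for Rps6kb1, which again lost the call. The 3 lower members are AT-rich, with longest transcripts of 39.2% (Rps6kb1), 40.5% (Rps6ka3) and 42.7% (Rps6ka5) GC. The other members lay between 54.3% (Rps6ka2) and 60.3% (Rps6ka4).

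Over all genes past the CPM minimum with a GC value, the 3380 with the lowest GC content (30.8% to 44.7%) had a median log2 ratio of -0.28, with 5.77% called higher and 9.29% lower. In the 3380 with the highest (54.3% to 75.5%) the median was 0.26, with 17.2% called higher and 2.19% lower. The 3 members called lower thus lay in the lowest range of GC content, and the other members in the highest. In the highest range the log2 ratios were 2.22 for Rps6ka1, 0.23 for Rps6ka4, 0.16 for Rps6kb2 and -0.16 for Rps6ka2. The part of GC content in the ratios was measured only by the centring above.

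**Figure D2:**
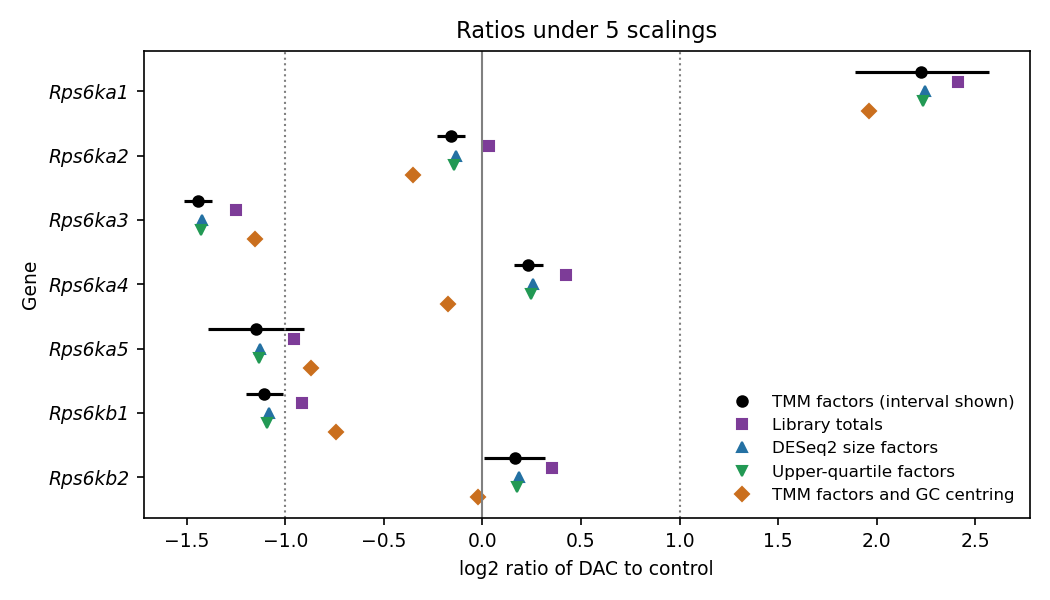
log2 ratio of DAC to control for each member under 5 scalings, with the counting interval drawn for the TMM factors and dotted lines at the 2-fold limits. Rps6ka1 and Rps6ka3 lie beyond the 2-fold limits under every scaling shown, whereas Rps6ka5 and Rps6kb1 cross inside under library totals and GC centring.

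The make-up of the family, which needs no scaling between libraries, was next compared. Shares are not free of the trend with GC content. The 7 members summed to 14786 counts in control and 12076 in DAC. Rps6ka3 held 36.6% (35.8 to 37.3) of them in control and 19.3% (18.6 to 20.04) in DAC, and so passed from the first place to the third. Rps6ka4 held 17.5% (16.9 to 18.1) and then 29.6% (28.8 to 30.4), the largest share in DAC. The share of Rps6ka1 was 0.582% (0.465 to 0.718) and 3.90% (3.56 to 4.26). The intervals of the libraries did not overlap for any of these genes, and this held for all 7 members. How often this holds in sets of other genes was not computed. The intervals cover counting error only, and the family was chosen by this contrast, so nothing is read from it.

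The remaining shares changed by smaller factors. Rps6ka2 had 21.1% in control and 27.1% in DAC, and Rps6kb2 had 4.14% and 6.66%. Rps6kb1 went from 17.4% to 11.6% and Rps6ka5 from 2.73% to 1.77%. A gene can gain share without gaining CPM, as Rps6ka2 did, because the summed level of the family was lower in DAC. That sum was 462 CPM in control and 321 in DAC, a ratio of 0.696 (0.679 to 0.713), or 0.795 by library totals.

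By group, RSK made up 58.2% of the family counts in control and 50.4% in DAC, MSK 20.2% and 31.3%, and S6K 21.6% and 18.3%. Their summed CPM gave ratios of 0.602 (0.583 to 0.623) for RSK, 1.08 (1.03 to 1.13) for MSK and 0.590 (0.559 to 0.624) for S6K. By library totals these ratios were 0.688, 1.23 and 0.674. The sums were not computed after GC centring, where both MSK genes had ratios under 1 (0.887 for Rps6ka4 and 0.547 for Rps6ka5). A rise of the MSK group is therefore not read from its sum. The MSK sum was carried by Rps6ka4, as its partner Rps6ka5 fell. Within the 3 counted RSK genes, Rps6ka3 held 62.8% of counts in control and 38.4% in DAC, and Rps6ka2 took the leading place with 53.9%. The share of Rps6ka1 among them was 0.999% in control and 7.74% in DAC.

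**Figure D3:**
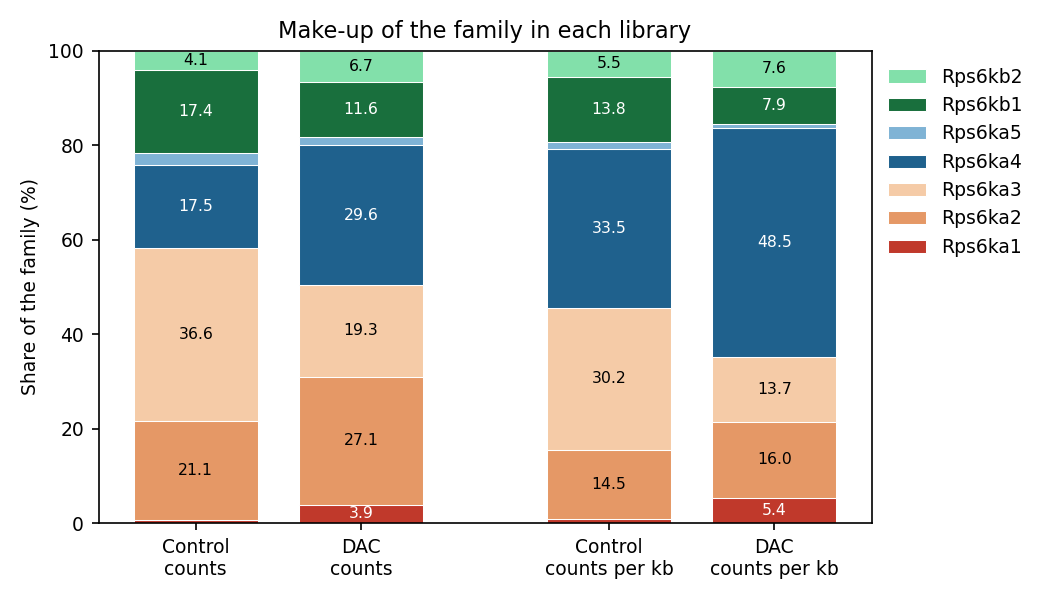
Share of each member in the summed counts of the family (left bars) and in the sum of counts per kilobase of exon (right bars), in percent, for 1 control and 1 DAC library. Rps6ka3 shrinks from 36.6% to 19.3% of counts and Rps6ka4 grows from 17.5% to 29.6%, without correction for GC content.

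To compare levels between genes, CPM was divided by the exon length in kilobases. In control the order was Rps6ka4 (22.5 CPM per kb, 21.6 to 23.4), Rps6ka3 (20.3, 19.7 to 20.8), Rps6ka2 (9.75, 9.41 to 10.1), Rps6kb1 (9.29, 8.93 to 9.65), Rps6kb2 (3.70), Rps6ka5 (1.06) and Rps6ka1 (0.631). The intervals of Rps6ka2 and Rps6kb1 overlapped, so that their order is not settled by the counts. Rps6ka1 was the lowest of the 7.

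In DAC the order was Rps6ka4 (26.4 CPM per kb, 25.6 to 27.3), Rps6ka2 (8.74, 8.45 to 9.05), Rps6ka3 (7.46, 7.16 to 7.77), Rps6kb1 (4.32, 4.09 to 4.55), Rps6kb2 (4.14, 3.86 to 4.44), Rps6ka1 (2.94) and Rps6ka5 (0.477). Rps6kb1 and Rps6kb2 overlapped there, although they had stood apart in control. Rps6ka1 and Rps6ka5 exchanged the last places. Even after its rise, Rps6ka1 remained below Rps6ka2 and Rps6ka3 per length. Calculated per kilobase of exon, Rps6ka4 made up 33.5% of the family in control and 48.5% in DAC, and Rps6ka3 30.2% and 13.7%. By the longest transcript these shares were 29.2% and 42.7% for Rps6ka4, and 26.1% and 12.0% for Rps6ka3.

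The ratio between the counts of a pair of paralogs is free of both library scaling and gene length when it is followed from one library to the other. Of the 21 pairs, 19 had an interval of this change that stayed on one side of 1, and 13 changed more than 2-fold. The same share was not computed for pairs of other genes. Because the pairs share their members and the family was chosen by this contrast, nothing is read from these counts of pairs. The largest change was between Rps6ka1 and Rps6ka3, whose count ratio was 0.0159 in control and 0.202 in DAC, a 12.7-fold change (10.001 to 16.2). With the counts divided by 3, to widen the interval, it was 12.5 (8.30 to 19.5). Rps6ka1 also gained 10.3-fold (7.72 to 13.9) on Rps6ka5.

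Pairs within each group changed as well. The count ratio of Rps6ka2 to Rps6ka3 went from 0.576 to 1.40, a 2.44-fold change (2.27 to 2.61). In the MSK group, the ratio of Rps6ka4 to Rps6ka5 went from 6.41 to 16.7, or 2.60-fold (2.18 to 3.11). In the S6K group, Rps6kb1 had 4.21 counts for each count of Rps6kb2 in control and 1.75 in DAC, a change of 2.41-fold (2.13 to 2.73) in favor of Rps6kb2. Each group thus held a GC-richer member that gained on an AT-richer one, and pair ratios are not free of the trend with GC content. After GC centring, the ratios of DAC to control were 0.784 for Rps6ka2 and 0.450 for Rps6ka3. They were 0.887 for Rps6ka4 and 0.547 for Rps6ka5, and 0.984 for Rps6kb2 and 0.598 for Rps6kb1. The members of each of these pairs were then less than 2-fold apart. For 2 pairs the interval of the change included 1, namely Rps6ka4 with Rps6kb2 (1.05, 0.932 to 1.18) and Rps6ka5 with Rps6kb1 (0.971, 0.809 to 1.16).

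Shared sequence between paralogs or with neighbors could move counts from one gene to another. The coding sequences (longest open reading frames) were 74.98% identical between Rps6ka1 and Rps6ka2, 70.8% between Rps6ka1 and Rps6ka3, 71.6% between Rps6ka2 and Rps6ka3, 67.0% between Rps6ka4 and Rps6ka5 and 70.0% between Rps6kb1 and Rps6kb2. Of the 50-base stretches in the longest coding transcript, none of Rps6ka3 or Rps6ka5 occurred in another gene. For Rps6ka1 the share was 2.33%, most often in Gm12977, and for Rps6kb1 it was 1.93%, most often in Rnft1. It was larger for the members that were not called, namely 34.5% for Rps6ka2 (Sod2), 20.1% for Rps6ka4 (CAAA01066123.1) and 23.9% for Rps6kb2 (Ptprcap).

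Rps6kb2 has 1269 of its 5167 exon bases overlapped on the opposite strand by Coro1b and Ptprcap. Whether counting used the strand was not stated in the labels or methods, so reads of these genes cannot be told apart. Coro1b, an actin regulator, had 4497 and 6194 counts (ratio 1.17), against a ratio of 1.12 for Rps6kb2. Ptprcap, which shares the most stretches with Rps6kb2, had 12 and 19 counts (ratio 1.35, 0.622 to 3.05). Sod2, the mitochondrial superoxide dismutase that shares stretches with Rps6ka2, had 1786 and 2186 counts (ratio 1.04). The values of Rps6ka2, Rps6ka4 and Rps6kb2 are uncertain to this extent.

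The members are spread over 6 chromosomes, and the genes beside the 4 called members were examined. The coordinates are those of GENCODE M21 on GRCm38. Rps6ka1 (ENSMUSG00000003644) lies at chr4:133847290-133887797 on the minus strand. None of its nearest protein-coding neighbors was called, and their ratios were 1.20 for Pigv, 0.746 for Arid1a, a subunit of the SWI/SNF remodeling complex, 1.44 for Hmgn2 and 1.27 for Dhdds. Farther out, 4 of the 18 measured genes with a start within 500 kb were called higher and 0 lower, with a median log2 ratio of 0.30. Over all genes past the CPM minimum, 10.8% were called higher. Among the 3380 genes with the highest GC content it was 17.2%, with a median of 0.26. A difference of this region from the rest was not tested.

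Rps6ka3 (ENSMUSG00000031309) lies at chrX:159210307-159368244 on the plus strand. The next gene, the initiation factor gene Eif1ax, begins 3.93 kb beyond its end. Eif1ax had 6456 counts in control and 5394 in DAC, a ratio of 0.712 (0.687 to 0.738), lower but not called. Map7d2 had 3 counts and 0, while Klhl34 and Cnksr2 on the other side had no row. All 4 measured genes with a start within 500 kb had a log2 ratio under 0, with a median of -0.56, and none was called. The 446 measured genes of chromosome X had a median log2 ratio of -0.20, against -0.018 for all genes, with 40 called higher and 30 lower. Over all genes past the CPM minimum, 10.8% were called higher and 5.29% lower. Xist, the RNA that silences an X chromosome, had 21 counts in control and 10393 in DAC, and its part in the Rps6ka3 counts was not tested.

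Rps6ka5 (ENSMUSG00000021180, chr12:100548439-100726983, minus strand) has Ttc7b and Dglucy as its nearest neighbors, with ratios of 0.609 and 0.872, and neither was called. Rps6kb1 (ENSMUSG00000020516, chr11:86498871-86544805, minus strand) starts 0.186 kb from Tubd1, which had 71 and 88 counts, a ratio of 1.06 (0.764 to 1.46). The gene that begins beside Rps6kb1 was thus not called. Med13, a Mediator subunit (0.632), Rnft1 (1.02) and Vmp1 (0.803) were not called either.

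**Figure D4:**
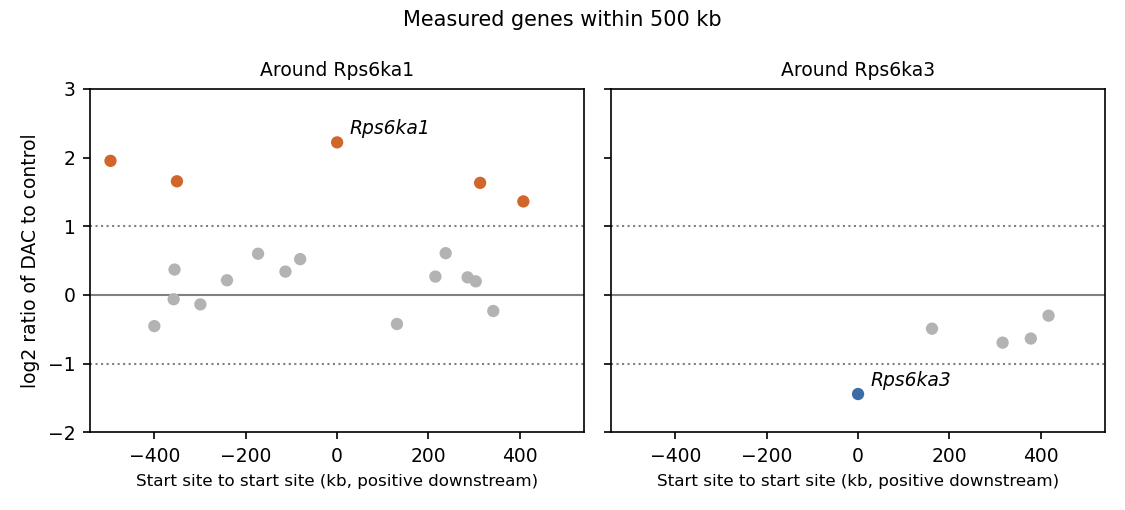
log2 ratio of DAC to control (vertical axis) of measured genes against the distance in kb from their start to that of Rps6ka1 (left) or Rps6ka3 (right), positive downstream, with calls colored orange (higher) and blue (lower) and dotted lines at the 2-fold limits. Around Rps6ka1, 4 of 18 genes are called higher (10.8% over all genes), and around Rps6ka3 all 4 lie under 0 without a call.

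The genes that feed into the family, its substrates and its relatives were then counted, from lists drawn up from textbook knowledge. Of 112 listed genes, 102 passed the CPM minimum, with 8 called higher, 4 called lower and a median log2 ratio of 0.036. Over all genes past the minimum, 10.8% were called higher and 5.29% lower, with a median of -0.018. The calls in the lists below are therefore given as a description, and nothing is read from their number. By library totals, the medians of the ERK, mTORC1 and other AGC lists, given as negative values here, lay above 0 (0.16, 0.074 and 0.10), and after GC centring that of the RSK substrates was -0.12. The ERK cascade, which activates RSK and MSK, had 0 of 15 measured genes called in either direction and a median of -0.028. The adaptor gene Shc1, its most abundant gene by the mean of the libraries, had a ratio of 0.803 (0.776 to 0.830), while Mapk3, which encodes ERK1 and was the most abundant in DAC, had a ratio of 1.40 (1.35 to 1.45). The gene of the scaffold protein KSR1 lay just under the limit, with 247 counts in control and 577 in DAC and a ratio of 1.99 (1.71 to 2.32), and was called under library totals, DESeq2 and upper-quartile factors.

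In the p38 cascade, the other route to MSK, 2 of 11 measured genes were called higher and 0 lower, with a median of 0.35. Map2k6, which encodes the p38 activator MKK6, had 24 counts in control and 95 in DAC, a ratio of 3.37 (2.14 to 5.52). Mapkapk3, a kinase gene downstream of p38, had 0 and 48 counts, a ratio of 13.6 against 3 counts set for the 0, with a lower counting limit of 10.7. Both genes passed the CPM minimum only through the DAC library (2.53 and 1.28 CPM), and with a minimum of 5 CPM 0 genes of the list were called higher. Tab2, the most abundant gene of the list by the mean of the libraries, had a ratio of 0.635 (0.612 to 0.659), while Mapkapk2, the most abundant in DAC, had a ratio of 0.887 (0.854 to 0.920). Mapk13 had no row.

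Among the mTORC1 and PDK1 genes upstream of S6K, 1 of 19 was called higher and 0 lower, and the median was -0.12. Mlst8, an mTOR complex subunit, had 568 counts in control and 1657 in DAC, a ratio of 2.49 (2.26 to 2.74). Akt1 was the most abundant, with a ratio of 1.22 (1.19 to 1.26). Pdpk1, which encodes the PDK1 that phosphorylates RSK and S6K, had 5452 and 3460 counts, a ratio of 0.541 that did not reach the limit.

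The substrates showed calls in both directions. Of 17 measured RSK substrates 1 was called higher and 1 lower, with a median of 0.083. Nfkbia, the inhibitor of NF-κB, had 366 counts in control and 1454 in DAC, a ratio of 3.39 (3.02 to 3.81). Creb1, shared by the RSK and MSK lists, had 1838 and 883 counts and was 2.44-fold lower, with a log2 ratio of -1.29 that became -0.998 after GC centring and was then not called. It was the 1 called gene of 4 MSK substrates, whose median was -0.19 and whose most abundant gene, Hmgn1, had a ratio of 0.748 (0.731 to 0.766). The most abundant RSK substrate gene, the actin cross-linker gene Flna, had a ratio of 1.06 (1.04 to 1.07).

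Of 10 S6K substrates, 1 was called higher and 1 lower, and the median was 0.11. Eef2k, the kinase of elongation factor 2, had 598 and 1454 counts, a ratio of 2.07 (1.88 to 2.28). Mdm2, the p53 ubiquitin ligase, had 15932 and 8250 counts and was 2.27-fold lower, a call lost under library totals. Rps6 itself, the ribosomal protein for which the family is named, had 29870 and 31348 counts, a ratio of 0.894 (0.880 to 0.909). Transcript counts do not measure the phosphorylation of these proteins.

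Of 32 other measured AGC kinases, the wider class to which the amino-terminal kinase domain of RSK and MSK and the S6K domain belong, 2 were called higher and 2 lower, with a median of -0.10. Pkn3 had 424 counts in control and 1539 in DAC, a ratio of 3.09 (2.78 to 3.45). Dmpk, the myotonic dystrophy kinase, had 331 and 833 counts and a ratio of 2.14 (1.89 to 2.44), a call lost after GC centring. Prkg2, a cGMP-dependent kinase and the most abundant of the list, had 31275 and 13601 counts and was 2.70-fold lower. Cdc42bpa, a kinase regulated by the GTPase Cdc42, had 7984 and 4527 counts and was 2.07-fold lower, which no longer held under library totals or GC centring.

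There were also 2 more distant genes with ribosomal S6 kinase names. Rps6kl1 had 3 counts in control and 68 in DAC, a ratio of 19.3 (6.34 to 96.0), and was called higher from a level near 0. It passed the CPM minimum only through the DAC library (1.81 CPM), and with a minimum of 5 CPM it was not called. Rps6kc1, with 1159 counts in control and 1914 in DAC, was not called (ratio 1.41, 1.31 to 1.52).

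**Figure D5:**
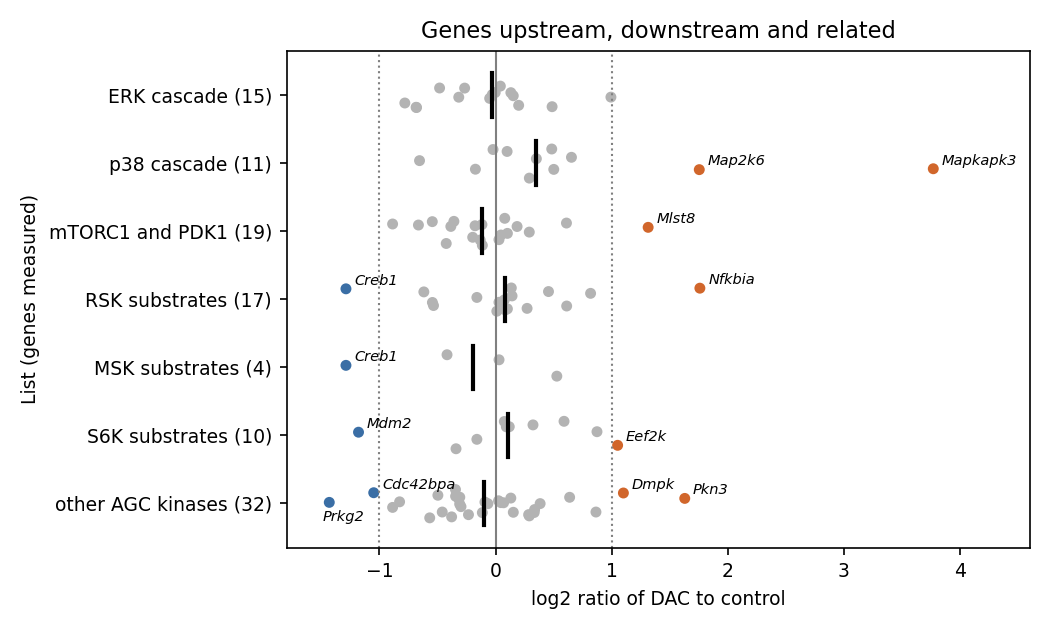
log2 ratio of DAC to control for every measured gene of 7 lists, with orange points called higher, blue points called lower, a black bar at the median of each list and dotted lines at the 2-fold limits; Mapkapk3 is drawn against 3 counts in control. The medians lie between -0.19 (MSK substrates) and 0.35 (p38 cascade), and no gene of the ERK cascade is called.

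The genes with the pattern nearest to a member were found by the distance between their log2 CPM values in the 2 libraries. For Rps6ka1 they were Slfn2 (87 and 450 counts, distance 0.068), Bgn (84 and 448, distance 0.080) and Rusc1 (95 and 480, distance 0.15). For Rps6ka3 they were Slc25a40 (5393 and 2329 counts, distance 0.0045), Slc19a2 (5092 and 2198, distance 0.12) and Stard5 (5699 and 2588, distance 0.17). With only 2 values per gene, likeness says no more than that these counts are close.

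The cell identity of the libraries was checked by marker genes. Of 11 colon epithelium markers, 5 reached 1 CPM, of which 4 were called higher. These were Krt8 with 5 counts in control and 4445 in DAC, Krt19 with 12 and 58, Krt20 with 593 and 1548 and Lgals4 with 76 and 182. Krt8 and Krt19 passed the CPM minimum only through the DAC library (118 and 1.54 CPM). Over all genes past the minimum, 10.8% were called higher. Krt18, with 1797 and 3579 counts, was not called. The defining epithelial genes were near 0, with 0 and 9 counts for Cdh1, 0 and 12 for Vil1 and 4 and 22 for Cdx2, and Epcam and Cdx1 had no row. The goblet cell mucin gene Muc2 had 21 and 6 counts and did not reach 1 CPM. Of 5 mesenchymal markers, all measured, 0 were called higher and 1 lower, with a median log2 ratio of -0.038. The lower one was the fibronectin gene Fn1, the most abundant of them, with 210619 counts in control and 65467 in DAC, 3.78-fold lower. Vim, which encodes vimentin, had 36138 and 48746 counts and was not called. The part of these marker differences in the member values was not tested. Of the leukocyte and endothelial markers with a row, Ptprc had 3 and 0 counts, Pecam1 5 and 12 and Cdh5 3 and 0. The glycolytic gene Gapdh differed little between the libraries (0.997, 0.984 to 1.01).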

How the data were processed

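Poly-A RNA of control and DAC-treated CT26 cells was sequenced, and the authors deposited raw whole-number counts per Ensembl gene without normalization. The build mm10 and the tools STAR 2.5.3a, StringTie 1.3.1c, Trim Galore, FastQC, Cufflinks and DESeq are named in the submitters' processing notes, but the methods of the paper give FPKM from CASAVA. The sources used here do not say which of these made the counts or whether strand was used. Of 24223 identifiers, 24122 matched GENCODE M21 on GRCm38 (mm10). TMM factors (0.936 for control and 1.07 for DAC) came from edgeR 4.0.16 in R 4.3.3. CPM, exact intervals and shares were computed in Python 3.11.15 (scipy 1.17.1, pandas 2.3.3, numpy 2.4.6). At 1 CPM a gene had 32 counts in control and 37.6 in DAC, and a count of 0 was replaced by 3 in ratios. With 1 library per group there is no test and no p-value.

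The members and the gene lists were chosen with earlier results of these data known. Named genes are the members, every called gene and the most abundant gene of each list by mean CPM, the 2 nearest protein-coding genes on each side of called members, the 3 genes nearest in level to Rps6ka1 and Rps6ka3, Rps6kl1, Rps6kc1, Xist and Gapdh. Ksr1, Pdpk1, Mapk3, Mapkapk2, Coro1b, Ptprcap, Sod2, Vim, Muc2 and the markers given at or near 0 were added after their values were seen. As alternatives, GC centring, upper-quartile factors, size factors of DESeq2 1.42.0, library totals, other CPM minimums, folds of 1.5 and 4 and intervals after dividing counts by 3 were tried. The scripts were tested on simulated data. Some neighbors of Rps6ka5 that the rule names are not reported here. Bisulfite sequencing, xenograft and mouse experiments were not analysed here.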

Additional observations from a re-analysis of the deposited data

How the results depend on the processing

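Rps6ka1 remained the only member called higher under library totals, DESeq2 size factors, upper-quartile factors, GC centring, the other CPM minimums, folds of 1.5 and 4 and intervals from counts divided by 3. The number of members called lower was 3 with the TMM factors, 1 by library totals, 1 after GC centring (Rps6ka3 in each case) and 0 at a fold of 4. The log2 ratio of Rps6ka3 was -1.25 by library totals and -1.15 after GC centring. Shares depended on the denominator. Rps6ka1 held 0.939% in control and 5.40% in DAC per kilobase, and 0.999% and 7.74% within RSK. Rps6ka3 held 30.2% and 13.7% per kilobase, and 62.8% and 38.4% within RSK.

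Over all genes, the number called higher was 1468, and 2672 without a CPM minimum, 684 with a minimum of 5 CPM, 2612 at a fold of 1.5 and 579 at a fold of 4. The number called lower was 716, and 458 by library totals, 1239 without a minimum, 450 with a minimum of 5 CPM, 2059 at a fold of 1.5 and 112 at a fold of 4. Among the listed pathway genes 8 were called higher, and 5 with a minimum of 5 CPM, 17 at a fold of 1.5 and 2 at a fold of 4. The number called lower was 4, and 2 by library totals, 2 after GC centring, 12 at a fold of 1.5 and 0 at a fold of 4. No paired analysis was possible because each group has 1 library, and no library could be left out for the same reason.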
